A study of Mus musculus with 32 samples.

Results

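The basement membrane genes described here are 10: the laminin chain genes *Lama4*, *Lama5*, *Lamb2*, and *Lamc1*, the collagen IV chain genes *Col4a1*, *Col4a2*, and *Col4a5*, the nidogen genes *Nid1* and *Nid2*, and *Hspg2*, which encodes the heparan sulfate proteoglycan perlecan. They were picked by gene symbol, and each matched 1 of the 22850 rows of the expression table. A basement membrane is a thin sheet of matrix under endothelium and epithelium and around pericytes. Laminin trimers (1 α, 1 β, and 1 γ chain) and collagen IV trimers each form a network, and nidogens and perlecan link them. In mouse islets the β cells make little basement membrane of their own and rest on that of the intra-islet capillaries, which is rich in laminins with α4 and α5 chains and is bound through integrins.

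The study asked how cells of the islet microenvironment act while β cells are lost and recover. Endothelial cells (ECs), macrophages (MΦs), and β cells were sorted from dispersed islets and their RNA was sequenced in 32 samples. All mice, controls included, were young adult males on a C57BL/6 background that carried the transgenes RIP-rtTA and TetO-VEGF-A together with MIP-GFP. The rat insulin promoter drives the rtTA activator in β cells, doxycycline (Dox) in the drinking water then induces human VEGF-A from the TetO promoter, and the mouse insulin promoter drives GFP. No Dox mice received none, 1wk Dox mice received 1 week, and 1wk WD mice had 1 week without Dox after 1 week with it. β cells were gated as GFP+ and negative for CD31 and CD11b, ECs as CD31+, and MΦs as CD11b+, and none of these gates uses a pericyte or acinar marker. No Dox had 4 samples of each cell type. There were 5 samples of β cells, 1 of ECs, and 2 of MΦs with Dox, and 3, 5, and 4 after withdrawal. Islets from several mice went into each sample, so the replicates are pools and not single animals. Values are normalized expression scores, whole numbers with 1 as the lowest, and read depth behind them is unknown.

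The sorted populations carried the markers of their labels. The summed score of 10 endothelial markers (*Pecam1*, *Cdh5*, and others) was 365008-585993 in ECs, and at most 55377 in β samples and 5127 in MΦs. That of 10 macrophage markers was 278413-548211 in MΦs and at most 7540 elsewhere, and that of 9 β cell markers (*Ins1*, *Ins2*, and others) was at least 502570 in β samples and at most 46016 elsewhere. The β samples also held other RNA. The summed score of 11 pericyte and fibroblast markers ran from 1036 to 544937 across them, and that of 7 acinar markers from 224 to 10901432. In samples of many cells, a lower score of a gene from fewer cells of a type and one from less RNA per cell cannot be told apart.

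The 3 pairs of collagen IV genes lie head to head in the mouse genome, and 2 of their start regions are shown because the pairs behaved unlike one another in the sorted cells. On mm9, the build of the deposited table, *Col4a1* is at chr8:11198423-11312826 on the minus strand and *Col4a2* at chr8:11312805-11449287 on the plus strand. Both annotated starts lie within 22 bases that the 2 genes share. *Col4a4* and *Col4a3* start 71 bases apart on chromosome 1, and *Col4a6* and *Col4a5* (chrX:137909928-138123778, plus strand) 1308 bases apart. The first sequence is the 22-base overlap (chr8:11312805-11312826) and the second the stretch between *Col4a4* and *Col4a3* (chr1:82583425-82583495), both on the plus strand of mm9. Capitals mark matches to GGGCGG (GC box), CCAAT, or TATAAA on either strand.
Col4a1-Col4a2: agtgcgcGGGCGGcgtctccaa
Col4a4-Col4a3: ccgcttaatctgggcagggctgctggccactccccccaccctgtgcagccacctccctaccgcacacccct

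Of the 10 genes, 7 had a RefSeq promoter window (250 bases before to 50 after the start, build GRCm38.p6), and *Lama4*, *Lamc1*, and *Nid2* had none. GGGCGG occurred in 6 of the 7 windows, against 35.7% of 32851 windows of that length, CCAAT in 4, against 37.4%, and TATAAA in 0, against 13.6%. The windows of *Col4a1* and *Col4a2* overlap. The 250 bases before the starts of *Hspg2* (chr4:137468553-137468802, plus strand) and *Col4a5* (chrX:141475169-141475418, plus strand) are shown with the same capitals, since these were the members with the highest and the lowest score in No Dox ECs, lengths not considered. The *Hspg2* stretch held 5 matches to GGGCGG, and the *Col4a5* stretch held 1 to GGGCGG and 1 to CCAAT.
Hspg2: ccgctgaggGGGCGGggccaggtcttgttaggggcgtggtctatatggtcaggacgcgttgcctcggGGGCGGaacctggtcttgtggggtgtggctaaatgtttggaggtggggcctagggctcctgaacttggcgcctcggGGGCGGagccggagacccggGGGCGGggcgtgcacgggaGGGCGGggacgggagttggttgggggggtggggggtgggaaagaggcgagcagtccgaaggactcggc
Col4a5: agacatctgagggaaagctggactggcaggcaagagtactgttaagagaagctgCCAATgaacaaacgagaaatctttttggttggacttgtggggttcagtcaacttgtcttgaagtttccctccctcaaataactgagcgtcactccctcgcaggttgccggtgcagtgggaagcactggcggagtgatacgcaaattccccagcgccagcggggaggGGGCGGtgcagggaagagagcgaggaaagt

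ECs held the most RNA of the basement membrane genes, with 1 exception. At No Dox, 9 of the 10 genes were higher in ECs than in β cells and *Col4a5* was lower, so that 10 of 10 passed the test (limma over all 32 samples with array weights by cell type, at least 2-fold and Benjamini-Hochberg adjusted p under 0.05), where 39.5% of the 16968 genes tested passed. In simulated data this fit, which also gave the other comparisons of cell types and of their responses, made more false calls than its adjusted p implies, so these p-values are likely too small. Against MΦs, the same 9 genes were higher in ECs and *Col4a5* did not pass, where 39.1% of genes passed. The median log2 difference of the 10 genes was 4.49 against β cells and 6.94 against MΦs, and that of all genes was -0.062 and 0. Without No Dox β replicates 1 and 2, 8 of 10 passed between ECs and β cells, 7 of them higher in ECs, where 33.3% of genes passed, and *Lamb2* and *Nid1* did not pass (0.99 ± 0.65 for *Nid1*, adjusted p = 0.241). Without replicates 3 and 4, all 10 passed, where 41.0% of genes did.

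**Figure D1:**
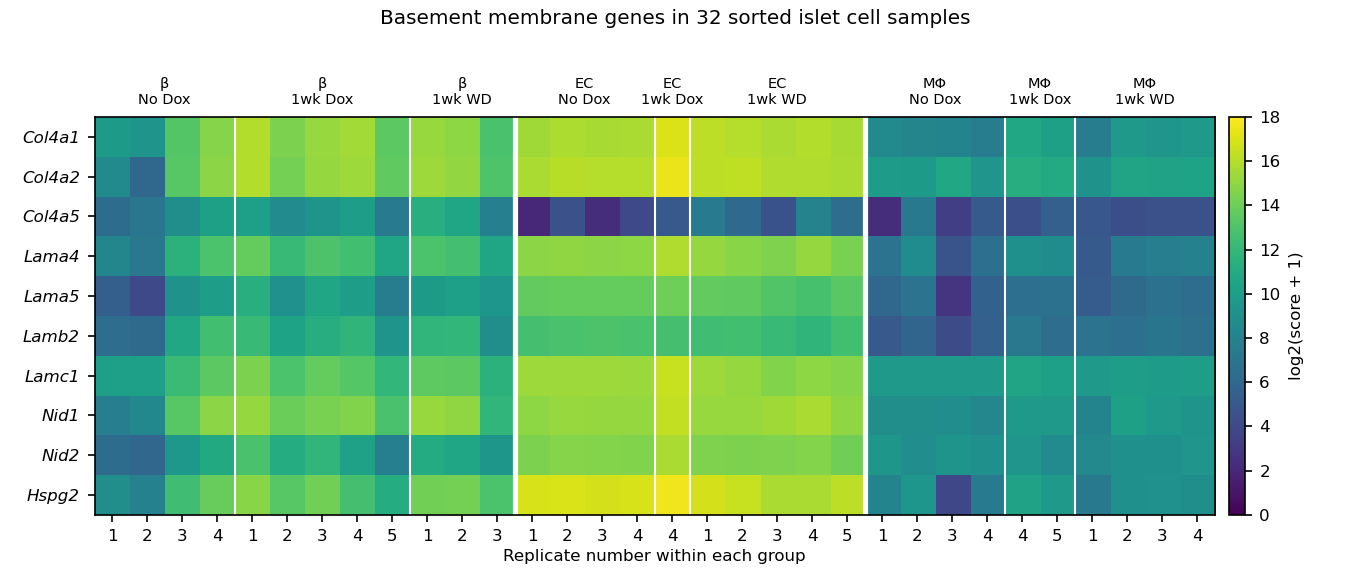
Color gives log2(score + 1) of the 10 genes (rows) in the 32 samples (columns, numbered by replicate within each group). ECs are uniformly high except for *Col4a5*, the first 2 No Dox β samples are low next to the other β samples, and MΦs are low.

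The perlecan gene *Hspg2* (chr4:137024634-137126545, plus strand) had the highest score of the 10 in No Dox ECs, with no correction for its length. Per kb of exon it stood at 8578.5 there, below *Col4a2* at 9424.6. At No Dox its scores were 124366, 126260, 118122, and 123896 in ECs, 467, 241, 5675, and 14585 in β cells, and 273, 708, 13, and 178 in MΦs. No EC value overlapped another cell type. The difference was 6.14 ± 1.00 (SE) on the log2 scale against β cells (adjusted p = 9.17e-06) and 9.70 ± 0.74 against MΦs (adjusted p = 5.82e-12). The size of the first depended on the β samples, with 3.76 for *Hspg2* without No Dox β replicates 1 and 2 and 8.52 without replicates 3 and 4. For all 9 members higher in ECs the difference was smaller without replicates 1 and 2 and larger without replicates 3 and 4.

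Among the laminin genes, scores per kb of exon allow the chains to be set side by side. In No Dox ECs (means of 4 samples) *Lamc1*, the γ1 chain of most laminins, stood at 5026.4 per kb, *Lama4*, the α chain typical of vessel walls, at 2609.6, *Lamb2* at 1305.7, and *Lama5*, the broadly used α5 chain, at 1188.0. The 10 laminin and collagen IV chain genes outside the members included 2 more that were abundant there, *Lama3* at 6426.1 and *Lamb1* at 1598.2 per kb. In β cells at No Dox the order depended on the sample. *Lamc1* led in replicates 1 and 2, with 141.6 and 137.6 per kb, and *Lama2*, a chain of pericyte and muscle basement membranes, stood at 20.1 and 8.7. *Lama2* led in replicates 3 and 4, with 1101.7 and 3100.0 per kb next to 594.4 and 1388.9 for *Lamc1*. *Lama5* was the lowest of these 5 chains in all 4 samples, at 1.3-95.4 per kb.

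*Lama5* (chr2:179911078-179960564, minus strand) had a large difference between ECs and β cells. At No Dox its scores were 12858, 14043, 13434, and 13856 in ECs, 43, 15, 589, and 1088 in β cells, and 62, 115, 6, and 48 in MΦs. The EC values spread little and lay above all others, and β cells and MΦs overlapped. The log2 difference was 6.54 ± 0.85 between ECs and β cells (adjusted p = 3.45e-07, and 4.08 without No Dox β replicates 1 and 2) and 1.87 ± 0.91 between β cells and MΦs (adjusted p = 0.0835).

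The nidogens differed in how far other cells shared them. *Nid1* (chr13:13529869-13604542, plus strand) scored 30909, 37500, 36228, and 35990 in No Dox ECs and 204, 343, 10427, and 29866 in No Dox β cells, so that the highest β sample came close to the lowest EC sample. *Nid2* (chr14:20570479-20631009, plus strand) scored 22299, 26732, 25308, and 24989 in ECs and 82, 61, 790, and 1936 in β cells, far apart. Within single samples the ratio of *Nid1* to *Nid2* per kb was 1.12-1.73 over the 10 EC samples, 0.49-1.81 over the 10 MΦ samples, and 2.01-26.9 over the 12 β samples. *Nid2* in MΦs (448-722 at No Dox) lay above the first 2 β samples, and β cells and MΦs did not pass the test for it (log2 difference -0.94 ± 0.71, adjusted p = 0.269).

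*Lama4* (chr10:38685321-38829994, plus strand), *Lamb2* (chr9:108382193-108392861, plus strand), and *Lamc1* (chr1:155066052-155179916, minus strand) followed the same order of cell types. Their log2 differences between ECs and β cells at No Dox were 4.96 ± 0.87, 3.83 ± 0.77, and 3.82 ± 0.44. *Lamc1* was the member with the most even level in MΦs, with scores of 823, 851, 806, and 845 at No Dox. Between β cells and MΦs, 7 of the 10 genes were higher in β cells at No Dox, where 43.0% of genes passed in either direction, and *Lama5*, *Col4a2*, and *Nid2* did not pass. This count rests on the β samples used. Without replicates 3 and 4 of the No Dox β samples, no member was higher in β cells and *Col4a2* and *Nid2* were lower, where 43.8% of genes passed. Without replicates 1 and 2, 9 were higher in β cells, *Col4a2* (4.15 ± 0.57) and *Lama5* (4.33 ± 0.90) among them, and *Nid2* did not pass, where 37.7% of genes passed.

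*Col4a5* (α5 chain of collagen IV) was the exception. Its scores were 3, 21, 4, and 15 in No Dox ECs, 82, 134, 471, and 1206 in No Dox β cells, and 4, 156, 9, and 34 in No Dox MΦs. ECs lay wholly below β cells (log2 difference -4.95 ± 1.11, adjusted p = 0.000514, with -6.36 without No Dox β replicates 1 and 2 and -3.53 without replicates 3 and 4), and ECs and MΦs overlapped (-1.32 ± 0.83, adjusted p = 0.182). Per kb, *Col4a1* and *Col4a2* stood at 7564.0 and 9424.6 in these ECs, and *Col4a5* at 1.6.

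The 3 head-to-head pairs of collagen IV genes had different ratios. Per kb, *Col4a1* was 0.73-1.00 times *Col4a2* in every one of the 10 EC samples, and 0.16-0.67 times in the 10 MΦ samples. In the 12 β samples the median ratio was 0.94. It was 2.29 and 9.33 in the first 2 No Dox samples, with scores of 907 and 634 for *Col4a1* against 385 and 66 for *Col4a2*, and 0.82-1.16 in the other 10. *Col4a3* was 2.15-3.48 times *Col4a4* in the EC samples and 0.11-0.83 times in β samples, so that the 2 ranges lay on opposite sides of 1. *Col4a5* was 1.39-16.28 times *Col4a6* in β samples and 0.02-1.8 times in EC samples.

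**Figure D2:**
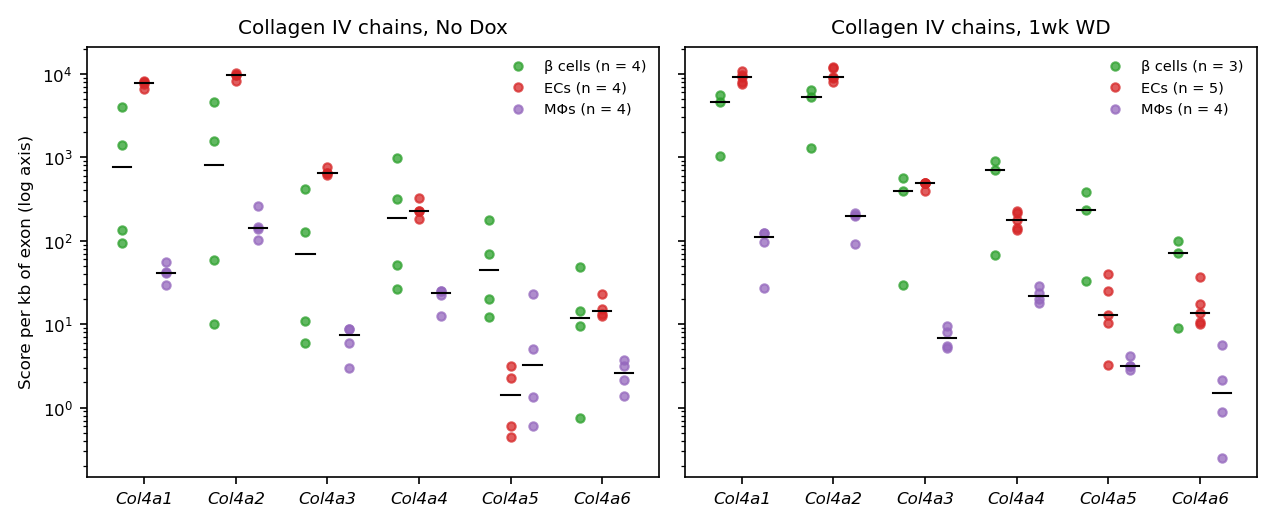
Score per kb of exon (log axis) of the 6 collagen IV chain genes at No Dox and 1wk WD in β cells, ECs, and MΦs. Each point is 1 sample and the short line the median. *Col4a1* and *Col4a2* are highest in ECs. *Col4a5* is lower in ECs than in β cells at No Dox, and at 1wk WD its median is lower in ECs but the samples overlap.

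Genes of the related lists differed between ECs and β cells in both directions at No Dox, to be read against the 39.5% of all genes that passed. Of the other laminin and collagen IV chains, *Lama3*, *Lamb1*, and *Col4a3* were higher in ECs than in β cells (log2 differences 8.26, 4.87, and 3.94) and *Lama2* lower (-3.59), with 6 of 10 not passing. Of 16 other basement membrane proteins tested, 8 were higher, among them *Tinagl1* (6.96), *Fbln2* (5.83), *Col15a1* (5.14), *Sparc* (4.77), which binds collagen IV, *Ntn4* (3.44), *Hmcn1* (3.37), *Col18a1* (2.88), and *Agrn* (2.55). Lower were 6, *Fras1* (-6.93), *Smoc2* (-5.86), *Smoc1* (-5.79), *Fbln1* (-3.95), *Npnt* (-3.69), and *Frem2* (-3.51).

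The receptor genes followed in part. Of 10, the laminin and collagen binding integrin chains *Itga1* (log2 difference 4.56), *Itgb4* (3.06), *Itga6* (2.85), and *Itgb1* (1.48) and the laminin receptor *Bcam* (4.83) were higher in ECs than in β cells, *Ddr1*, a collagen receptor kinase, was lower (-7.45), and 4 did not pass. Of 13 processing genes tested, 6 were higher, among them the collagen chaperone *Serpinh1* (3.33), the lysyl hydroxylases *Plod1* (3.28) and *Plod2* (3.29), *Pxdn* (1.98), which makes the sulfilimine bond of collagen IV, and *P4ha2* (1.74). Lower were 4, *Loxl2* (-2.40), *P3h2* (-2.36), *P4hb* (-1.92), and *P4ha1* (-1.28). Of 9 degrading enzymes, *Adamts1* (5.28), *Mmp15* (4.31), and *Mmp14* (2.32) were higher, *Mmp2* (-3.03) and *Hpse* (-1.79) lower, and 4 did not pass. Of 11 pericyte and fibroblast markers, 4 were lower in these ECs than in the No Dox β samples, among them *Col1a2* (-3.60) and *Col1a1* (-4.67), and the part of other cells in the β values was not tested.

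At 1wk WD, 5 of 10 members passed between ECs and β cells, where 35.5% of genes passed. *Nid2*, *Lama5*, *Lama4*, and *Lamc1* were higher in ECs (log2 differences 4.02 ± 0.73, 3.49 ± 0.94, 2.76 ± 0.96, and 2.08 ± 0.48) and *Col4a5* was lower (-3.41 ± 1.23, adjusted p = 0.0255). *Hspg2*, *Col4a1*, *Col4a2*, *Lamb2*, and *Nid1* had differences of 1.29 to 2.41 that did not pass (adjusted p = 0.0764 to 0.255). Without 1wk WD β replicate 3, the sample lowest in pericyte markers and in *Col4a1* and *Nid1*, the differences were 0.20 for *Nid1*, 0.41 for *Lamb2*, 0.77 for *Col4a2*, 0.81 for *Col4a1*, and 1.98 for *Hspg2*, and *Lama4* did not pass (2.06 ± 1.13, adjusted p = 0.157). *Col4a5* did not pass without replicate 1 or replicate 2, and its highest EC sample (270) lay above its lowest β sample (219). All 10 were higher in ECs than in MΦs, where 41.5% of genes passed. Without 1wk WD EC replicates 1 and 4, *Col4a5* did not pass there (1.17 ± 0.82, adjusted p = 0.234) and the other 9 did, where 40.4% of genes passed. Higher in β cells than in MΦs were 9, where 41.5% passed as well, and *Nid2* did not pass (1.43 ± 0.78, adjusted p = 0.131).

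The genes whose pattern over the 9 group means was most like the members' mean profile were *Sparcl1* (Pearson r = 0.997), *Ptrf* (0.997), *Gpx8* (0.996), *Fam38b* (0.995), and *Tril* (0.994), out of 16968 genes searched. *Sparcl1* had mean scores of 54592.0 in No Dox ECs, 9031.5 in No Dox β cells, and 190.0 in No Dox MΦs. The same measure was 0.881-0.998 for 9 of the members and 0.176 for *Col4a5*. Several of the 9 means are of the same cell type, and each member is part of the mean profile it is set against. These values describe the pattern and carry no test.

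In ECs, the question was what induction and withdrawal of VEGF-A did to these genes. The single 1wk Dox EC sample held more RNA of the vascular collagen IV, nidogen, and laminin γ1 genes than any No Dox sample, with no replicate to test it. Of the 10 members, 6 were past 2-fold of the No Dox mean, all higher, where 10.7% of 14047 genes were past 2-fold in either direction. The median log2 difference of the 10 was 1.13, and that of all genes 0.058. With a pseudocount of 20, 5 members were past 2-fold, where 6.68% of genes were, and *Col4a5* (0.77) was not.

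*Col4a1* scored 135553 in this sample, against 44318, 55495, 51837, and 54635 at No Dox, a log2 difference of 1.40. *Col4a2* scored 180455, against 53859, 67003, 64630, and 64035 (1.54). Both lay far above the No Dox range, and their ratio per kb, 0.73, was the lowest of the 10 EC samples, next to 0.78-1.00 in the others. *Nid1* scored 84898 (1.28), *Lamc1* 92235 against 39996-43015 (1.15), and *Nid2* 53596 (1.11). The sixth, *Col4a5*, scored 31, against 3-21, a low level in all of them. *Lama4* (60157, 0.94), *Hspg2* (202391, 0.72), and *Lama5* (16908, 0.32) were above every No Dox value but within 2-fold, and *Lamb2* (6474, -0.18) was below every one.

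Among the related genes in this sample, *Lamb1* (log2 difference 1.22) and *Lamc3* (1.38) were past 2-fold, and *Lama3* (-0.17) and *Lama2* (0.85) were not. Of 13 other basement membrane proteins, *Npnt* (2.59), *Frem1* (1.90), *Col18a1* (1.64), *Frem2* (1.21), *Col15a1* (1.15), and *Sparc* (1.14) were higher and *Fbln2* lower (-1.27). The integrin chains *Itga2* (1.54) and *Itga3* (1.08), the prolyl hydroxylase *P3h2* (1.92), and the proteases *Mmp2* (1.82) and *Mmp14* (1.18) were higher too. The most abundant receptor, processing, and degrading genes were within 2-fold, among them *Itga6* (0.05), *Itgb1* (0.51), *Itga1* (-0.21), *P4hb* (-0.33), *Pxdn* (0.82), *Ctsb* (0.57), *Adamts1* (0.07), and *Ctsl* (-0.23). The summed score of endothelial markers was 585993, against 461367-501313 at No Dox, that of pericyte and fibroblast markers 14560, against 5686-12723, and that of acinar markers 204, against 55855-1490258. The part of these in the result was not tested.

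One week after withdrawal, 1 of 10 members, *Col4a5*, passed in ECs against No Dox (limma within ECs, 9 samples), where 1.76% of 14167 genes passed. Its scores were 166, 69, 22, 270, and 86, above all No Dox values of 3, 21, 4, and 15. The log2 difference was 3.32 ± 0.73 (adjusted p = 0.0268). At such low scores its size depended on the pseudocount, and with 20 in place of 1 it was 1.96 ± 0.47 (adjusted p = 0.0382). In the same 1wk WD samples *Col4a1* scored at least 51336. Markers of pericytes and fibroblasts moved with it. Of 11, 10 were tested and 5 passed, all higher, with *Rgs5* at 40996, 16799, 14734, 63203, and 18398 after 4582, 8531, 4449, and 9981 at No Dox, and the summed score was 17034-71053 against 5686-12723. The samples with the highest *Rgs5*, replicates 1 and 4, also had the highest *Col4a5*, and without them *Col4a5* had a log2 difference of 2.50 ± 0.78 and did not pass (adjusted p = 0.117), where 1.34% of genes passed. The call was also lost without either of these alone or without No Dox replicate 1 or 3, with no filter on low scores, and with no trend of the spread. The part of pericytes in it was not tested.

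**Figure D3:**
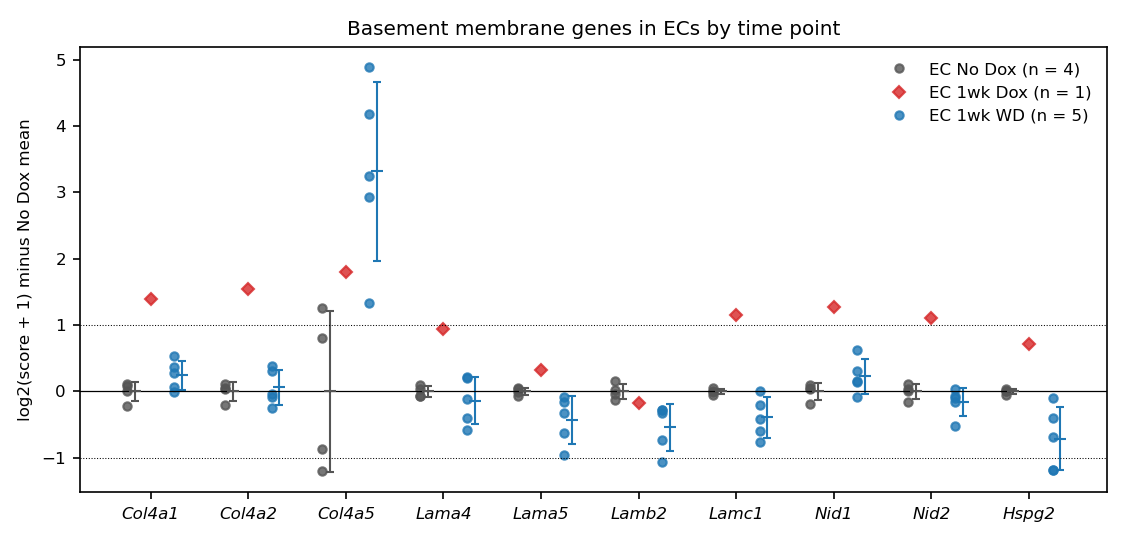
Difference of log2(score + 1) from the No Dox mean for each member in ECs, 1 point per sample, with mean ± SD beside the points of No Dox (n = 4) and 1wk WD (n = 5). Dotted lines mark 2-fold. The 1wk Dox sample (n = 1) is past 2-fold for 6 members, and at 1wk WD only *Col4a5* has a mean past it.

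The other members were within 2-fold of No Dox at 1wk WD and did not pass. *Hspg2* scored 114545, 92966, 54378, 54454, and 76452, all below the No Dox range of 118122-126260 (log2 difference -0.71 ± 0.20, adjusted p = 0.0678). *Lamb2* scored 5846, 6015, 4392, 3492, and 6047, all below 6675-8139 (-0.54 ± 0.16, adjusted p = 0.0805), and *Lama5* 12833, 12187, 8812, 6952, and 10778, all below 12858-14043 (-0.43 ± 0.16, adjusted p = 0.148). *Col4a1* scored 74091, 66180, 53645, 62355, and 51336, overlapping No Dox (0.25 ± 0.13, adjusted p = 0.268). *Col4a2*, *Nid1*, *Nid2*, *Lama4*, and *Lamc1* had log2 differences between -0.39 and 0.23. The median of the 10 was -0.15, and that of all genes 0.003. *Hspg2*, *Lamb2*, and *Lama5* were the 3 members with every 1wk WD value below the No Dox range. The summed score of endothelial markers was below it too, 365008-421539 against 461367-501313, with 0 of 10 called, and of 7 acinar markers 6 were lower. Their part in these values was not tested.

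Of the other laminin and collagen IV chains in ECs at 1wk WD, *Lamc3* (68-139 after 9-26, log2 difference 2.46 ± 0.41) and *Lama2* (307-1334 after 71-282, 2.15 ± 0.48) rose, and *Lama3* (-0.44) and *Lamb1* (-0.03) did not pass. *P3h2*, which hydroxylates collagen IV (2.48 ± 0.36), and *Mmp2* (2.38 ± 0.45) rose. None of 13 other basement membrane proteins and none of 9 receptors passed, with *Sparc* at 0.34, *Col15a1* at 0.35, *Agrn* at 0.38, and *Itgb1*, *Itga6*, and *Itga1* between -0.16 and -0.04. *Pxdn* (0.46), *P4hb* (-0.50), *Adamts1* (-0.49), *Ctsb* (-0.07), and *Ctsl* (0.24) were within 2-fold too. No Dox β replicates 3 and 4 scored above every EC sample for *Lama2* (10717 and 30157), *Lamc3* (1328 and 2802), and *Mmp2* (983 and 2612), and replicates 1 and 2 scored at most 196 for each.

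In β samples no member passed between times, and the No Dox samples differed widely among themselves. At 1wk Dox 0 of 10 passed against No Dox in limma, where 0.0122% of 16346 genes passed. At an unadjusted p under 0.05 and 2-fold or more there were 7, where 4.04% of genes met that rule. At 1wk WD 0 of 10 passed against No Dox, and 0 of 10 against 1wk Dox, where 0% of genes passed in both. The unadjusted rule was met by *Hspg2* and *Col4a2* against No Dox, where 4.45% of genes met it, and by 0 of 10 against 1wk Dox, where 2.88% did. All 10 log2 differences were above 0 at both times against No Dox, with medians of 2.49 and 2.37, and those of all genes were 0.032 and 0.064.

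*Col4a1* shows the spread. Its scores were 907, 634, 9463, and 27610 at No Dox, 62023, 22876, 38116, 46043, and 11391 at 1wk Dox, and then 38408, 31329, and 7134 after withdrawal. Replicates 1 and 2 of No Dox were far below all other β samples, and replicates 3 and 4 within the range of the treated ones. The log2 difference at 1wk Dox was 3.14 ± 1.05 (adjusted p = 0.576). Those of the others at 1wk Dox were 4.12 ± 1.49 for *Col4a2*, 3.10 ± 1.37 for *Nid1*, 2.56 for *Nid2*, 2.55 for *Lama5*, 2.44 for *Hspg2*, 2.42 for *Lama4*, 1.99 for *Lamb2*, 1.74 for *Lamc1*, and 1.00 for *Col4a5*. At 1wk WD they were 3.77 ± 1.70 for *Col4a2*, 3.02 ± 1.29 for *Hspg2*, 2.96 for *Nid1*, 2.62 for *Lama5*, 2.55 for *Col4a1*, 2.19 for *Nid2*, 2.07 for *Lama4*, 1.88 for *Lamb2*, 1.77 for *Col4a5*, and 1.34 for *Lamc1*. Between 1wk WD and 1wk Dox all 10 lay between -0.60 (*Col4a1*) and 0.77 (*Col4a5*). *Nid1* had the same form, with 204, 343, 10427, and 29866 at No Dox, 36331, 16007, 21427, 24633, and 7293 at 1wk Dox, and then 38360, 33546, and 3683 after withdrawal. Summed over the 10 members, No Dox samples scored 3727, 2853, 47503, and 132069, 1wk Dox samples 240001, 84975, 144095, 141421, and 40143, and 1wk WD samples 166182, 144895, and 33854.

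Pericyte and fibroblast markers split the No Dox β samples the same way, and those of other cells less so. The summed score of the 11 pericyte and fibroblast markers was 1036, 1126, 155303, and 544937 at No Dox, 508536, 164088, 287248, 448990, and 108281 at 1wk Dox, and then 372584, 338098, and 26130 after withdrawal. The pericyte receptor gene *Pdgfrb* scored 80, 66, 13692, and 49477 at No Dox. β cell markers went the other way, with 8675620, 5546741, 1657951, and 629168 at No Dox and 10896496 in 1wk WD replicate 3, the treated sample lowest in *Pdgfrb*. Acinar markers were high in the same No Dox samples as *Pdgfrb*, 641891, 27204, 10901432, and 8362379, against at most 18994 at 1wk Dox. Endothelial markers summed to 2115, 1551, 5594, and 11085 at No Dox, 1829-55377 at 1wk Dox, and 17312 in 1wk WD replicate 3, the withdrawal sample lowest in the members. The part of these cells in the values of the members was not tested.

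**Figure D4:**
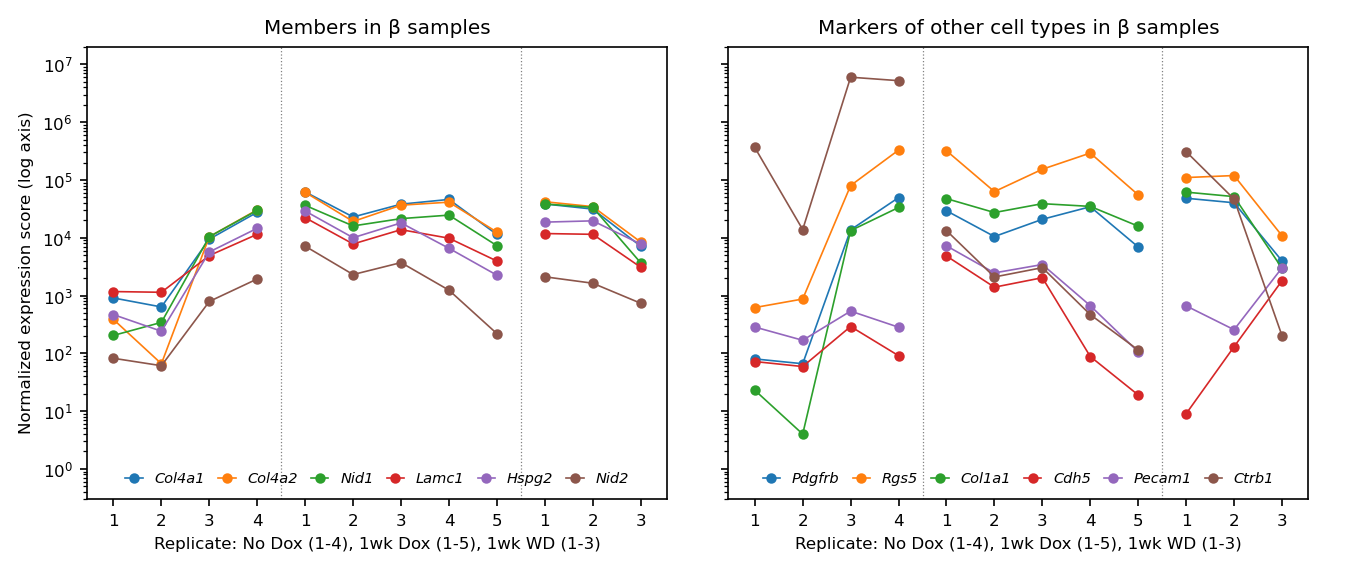
Scores (log axis) of 6 members and of 6 markers of pericytes or fibroblasts (*Pdgfrb*, *Rgs5*, *Col1a1*), ECs (*Cdh5*, *Pecam1*), and acinar cells (*Ctrb1*) in the 12 β samples, lines joining samples of a group for reading only. The members are lowest where *Pdgfrb* is lowest, at No Dox replicates 1 and 2.

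The comparison turned on which No Dox samples entered it. Without No Dox replicates 3 and 4, 9 of 10 members passed as higher at 1wk Dox and 9 of 10 at 1wk WD, with *Col4a5* not passing either time, and the median log2 differences were 4.75 and 4.65. In that fit 7.36% and 8.74% of genes passed. Without No Dox replicates 1 and 2, none passed (limma, 0 at an unadjusted p under 0.05), where 0.487% and 0.0853% of genes did, and the medians were 0.13 and 0.15. The pairs were chosen after the data were seen, and replicates 1 and 2 were also the No Dox samples lowest in the members. These counts show how far the result moved and carry no test.

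The treated β samples also differed in their markers. At 1wk Dox the EC marker *Cdh5* scored 4829, 1394, 2033, 88, and 19 and *Pdgfrb* 29295, 10492, 20841, 34404, and 6919. Replicate 4 was thus high in the pericyte marker and low in the EC marker. *Nid2* scored 7142, 2306, 3715, 1237, and 219 and *Hspg2* 28973, 10012, 18059, 6563, and 2249, lower in replicate 4 than in replicates 1 to 3. *Col4a1* (46043 in replicate 4), *Col4a2* (41311), *Nid1* (24633), *Lamb2* (3592), and *Col4a5* (1043) were instead second highest there, and *Lama4* (6115), *Lama5* (1065), and *Lamc1* (9819) lay between the lowest and the highest. This difference between members rests on 1 sample and was not tested. *Col4a5* scored 1165, 406, 642, 1043, and 181 at 1wk Dox and 2599, 1581, and 219 after withdrawal. It was highest in the 2 withdrawal samples with the most *Pdgfrb* (48280 and 40295). No Dox replicate 4, higher than either in *Pdgfrb*, scored 1206 for *Col4a5*, below both.

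None of the related lists had a gene that passed in β samples between times. At 1wk Dox the median log2 difference was 1.48 over 10 other laminin and collagen IV chains, 1.60 over 16 other basement membrane proteins, 1.40 over 8 degrading enzymes, 0.47 over 10 receptors, and 0.46 over 13 processing genes. Large differences came with large errors, as for *Sparc* (3.91, adjusted p = 0.653), *Col15a1* (3.58 ± 1.27), *Itga1* (3.02 ± 1.39), *Adamts1* (2.98 ± 1.54), *Lama2* (2.54 ± 1.59), *Lamb1* (2.44 ± 1.04), *Lama3* (1.82 ± 1.06), and *Agrn* (1.51 ± 0.99). Those of *Pxdn* (0.98), *Itgb1* (0.79), *Ctsb* (0.60), *Itga6* (0.48), *Ctsl* (-0.16), and *P4hb* (-0.68) were within 2-fold. The median over the 11 pericyte and fibroblast markers was 3.85.

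MΦs held little RNA of these genes, and 1 of 10 members, *Col4a1*, rose at 1wk Dox (limma within MΦs), where 2.26% of 15014 genes passed. Its scores were 380, 287, 277, and 201 at No Dox, 1664 and 1223 at 1wk Dox, and then 185, 833, 665, and 837 after withdrawal. The 1wk Dox values lay above all others. The log2 difference was 2.35 ± 0.51 (adjusted p = 0.0250). Against ECs, this level was small, since No Dox ECs scored at least 44318. The call was lost without either 1wk Dox sample, with no filter on low scores, with no trend of the spread, and with the replicate number as a block.

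*Col4a2* scored 2420 and 2038 at 1wk Dox, above 975, 902, 1718, and 675 at No Dox, with a log2 difference of 1.14 ± 0.38 that did not pass (adjusted p = 0.101). *Hspg2* scored 1306 and 823 after 273, 708, 13, and 178 (2.81 ± 1.12, adjusted p = 0.172), and *Lamc1* 1476 and 1132 after 806-851 (0.64 ± 0.18, adjusted p = 0.0644). *Nid2* scored 682 and 411, overlapping its No Dox range of 448-722. *Lama4* (2.19 ± 0.95), *Lamb2* (1.65 ± 0.56), *Lama5* (1.37 ± 0.91), *Nid1* (0.95 ± 0.44), and *Col4a5* (0.46 ± 1.15) did not pass. The median log2 difference of the 10 was 1.26, and that of all genes 0.035. Endothelial markers were also higher in these 2 samples, with a summed score of 5127 and 4228 against 2126-2762 at No Dox. All 10 were detected and none was called, *Cdh5* scored 255 and 154 after 57, 77, 2, and 4, and *Emcn* 686 and 370 after 44, 120, 27, and 28. The part of EC RNA in the MΦ values was not tested.

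**Figure D5:**
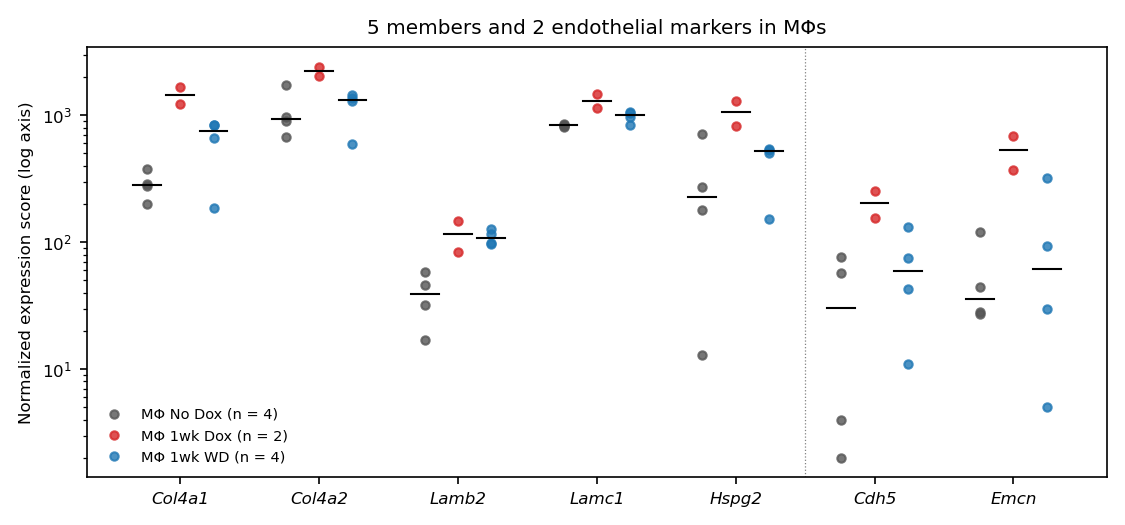
Scores (log axis) of 5 members and of the EC markers *Cdh5* and *Emcn* in MΦs, 1 point per sample and the median as a short line. At 1wk Dox (n = 2) *Col4a1*, *Col4a2*, *Lamc1*, and *Hspg2* lie above all other samples, and so do both EC markers. *Lamb2* overlaps them.

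No Dox replicates 2 and 4 of MΦs held the most acinar RNA (summed score 10260654 and 1740876). Without them, 4 of 10 members passed at 1wk Dox, where 6.41% of genes passed, namely *Hspg2* (log2 difference 4.07 ± 1.09), *Lama4* (3.15 ± 0.91), *Lamb2* (2.21 ± 0.52), and *Col4a1* (2.13 ± 0.61). Of the related lists, only the lysosomal protease gene *Ctsb* passed at 1wk Dox, with 79830 and 60112 after 21499-26316 (1.59 ± 0.17, adjusted p = 0.00131). *Sparc* (2.12 ± 0.61, adjusted p = 0.0693), *Pxdn* (1.74 ± 0.82), *Lamb1* (1.45), and *Lama3* (1.35 ± 1.02) had differences past 2-fold that did not pass. *Adamts1* (0.77), *Agrn* (0.40), *Ctsl* (0.34), *Col15a1* (0.21), *Itgb1* (0.19), *Itga6* (-0.09), *Lama2* (-0.45), *P4hb* (-0.45), and *Itga1* (-0.56) were within 2-fold.

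At 1wk WD 0 of 10 members passed in MΦs against No Dox, where 0.626% of genes passed. At an unadjusted p under 0.05 and 2-fold or more there was 1, where 4.97% of genes met that rule, namely *Lamb2*, with 116, 96, 126, and 99 after 32, 58, 17, and 46, all above No Dox (1.61 ± 0.46, adjusted p = 0.0971). *Col4a1* had a log2 difference of 0.95 ± 0.42 (adjusted p = 0.267), and without 1wk WD replicate 1, its lowest sample, it passed, where 0.821% of genes did. Without No Dox replicates 2 and 4, *Lamb2* passed, where 2.34% did. The others lay between -0.18 (*Nid2*) and 1.39 (*Hspg2*). Against 1wk Dox, 0 of 10 passed, where 0.0866% of genes passed, 2 met the unadjusted rule, where 1.82% did, and *Col4a1* had a difference of -1.40 ± 0.51 (adjusted p = 0.387).

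No gene of the related lists passed in MΦs after withdrawal or between withdrawal and Dox. Whether the change from No Dox to 1wk WD differed between cell types was tested directly, and 0 of 10 members passed in any pair (limma, all samples). Between ECs and β cells, where 0.112% of genes passed, 8 members had an unadjusted p under 0.05 at 2-fold or more, a rule that 8.67% of genes met. All 8 had the smaller response in ECs (median of the 10 members -2.39, limma adjusted p = 0.236 at the lowest), and *Lama4* (-2.20 ± 1.30) and *Col4a5* (1.54 ± 1.66) did not meet it. Without No Dox β replicates 3 and 4, 9 passed as lower in ECs, where 11.9% of genes passed, and without replicate 4 alone 6 did, where 4.50% passed. Without replicates 1 and 2, none passed (limma, 0 at an unadjusted p under 0.05). Between ECs and MΦs, where 1.77% of genes passed, *Lamb2* (-2.15 ± 0.79) and *Col4a5* (3.31 ± 1.15) had an unadjusted p under 0.05 at 2-fold or more, as 8.87% of genes did, and neither passed. Between β cells and MΦs, where 0.0177% passed, *Col4a2* (3.63 ± 1.38) and *Nid2* (2.38 ± 1.05) met the unadjusted rule, as 6.32% of genes did, and neither passed. Without No Dox β replicates 3 and 4, 8 members passed in that pair, where 9.46% of genes passed, and without replicate 4 alone 1 did, where 1.56% passed. Of the related lists, *P3h2* was the gene that passed, with a larger response in ECs than in MΦs (2.55 ± 0.67, limma adjusted p = 0.0377).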

How the data were processed

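RNA of β cells, ECs, and MΦs was sequenced in 32 samples. The authors amplified the RNA, sequenced paired-end reads, aligned them to mm9 (TopHat2 2.0 per the submitters' processing notes), and used Avadis NGS for TMM normalization. What they deposited are scores, whole numbers with 1 as the lowest. They are not counts, so read depth is unknown, and their precision at low values with it. The scores of a sample summed to 23465985-53441769. A further 6 columns of sample values belong to other samples and were not used. No 2 samples held identical values.

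Samples were grouped by their labels. The test was limma 3.58.1 (R 4.3.3) on log2(score + 1), with a trend of the spread on mean expression. Genes entered where the mean in any group reached a score of 20. Within β cells and MΦs all 3 times were fitted, and within ECs No Dox and 1wk WD. Cell types, and their differences in response, were compared in 1 fit of all samples with array weights by cell type. Genes passed at 2-fold and a Benjamini-Hochberg adjusted p under 0.05 over all genes tested. Fold changes of low scores are understated on this scale. The p-values measure the spread between pooled samples. The single 1wk Dox EC sample was set against the No Dox mean with no test. In simulated data the fits recovered most changed genes, and the fit of all samples made more false calls than its adjusted p implies.

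Lengths are unions of GENCODE M1 exons on mm9, whose gene coordinates equal those of the table for the 10 members. Promoter windows are from RefSeq on GRCm38.p6. Python 3.11.15, pandas 2.3.3, numpy 2.4.6, and matplotlib 3.10.9 were used. The members and lists were chosen with earlier results of these data known. All members are named in comparisons of times with No Dox and of ECs with β cells, and elsewhere by counts, ranges, and those that did or did not pass. Of 5 related lists, genes that passed are named between times and for ECs against β cells at No Dox, with the 3 of highest mean score where no more than 3 passed. One gene of these lists is not reported here. The other comparisons give these lists no named genes, short of the rule first set, and β cells and MΦs after withdrawal are among them. Alternatives were a pseudocount of 20, no filter on low scores, median-of-ratios scaling, no trend or no array weights, the replicate number as a block, and leaving out each replicate. Leaving out pairs of samples that other cells' markers set apart was added after the data were seen.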

Additional observations from a re-analysis of the deposited data

Results flagged for a closer look

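In 3 of 60 sets of 4 or 5 samples (10 genes in 6 groups), 1 sample lay far from the others on the log2 scale, and chance alone gives this in about 1 of 20 sets. All 3 were MΦ replicate 1 at 1wk WD. *Col4a1* scored 185 there and 665-837 in the other 3 samples, *Col4a2* 599 and 1296-1434, and *Hspg2* 153 and 506-546. *Nid1* was lowest in the same sample too (277, against 627-1178). Its summed pericyte and fibroblast markers were 2977, against 6134-11514 in the other 3 samples, and its acinar markers 185318, against 2409-6590. Their part in the low values was not tested.

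The change of *P3h2*, a prolyl hydroxylase of collagen IV, from No Dox to 1wk WD differed between ECs and MΦs by 2.55 on the log2 scale in limma's test of the difference, larger in ECs.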

How the results depend on the processing

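Counts of members that passed stayed within 1.5 times the reported count in 228 of 252 alternatives. In ECs at 1wk WD the count of 1 became 0 with no filter on low scores, with no trend, and without 1wk WD replicates 1 and 4, and ranged from 0 to 1 when 1 sample was left out. In MΦs at 1wk Dox it became 0 with no filter and with no trend, 4 without No Dox replicates 2 and 4, and ranged from 0 to 2 when 1 sample was left out, which leaves a lone 1wk Dox sample assumed to vary like the others. At 1wk WD against No Dox in MΦs it became 1 without No Dox replicates 2 and 4, and ranged from 0 to 1. Without No Dox β replicates 3 and 4, the count became 9 at 1wk Dox and 9 at 1wk WD in β cells, 2 for β cells against MΦs, where *Col4a2* turned to -2.65 ± 0.61 and *Nid1* to -0.68 ± 0.65 (log2), 9 for the response of ECs against β cells, and 8 for that of β cells against MΦs. When 1 sample was left out, the responses ranged from 0 to 6 for ECs against β cells, 0 to 1 for ECs against MΦs, and 0 to 1 for β cells against MΦs. Leaving out No Dox β replicate 4, or No Dox MΦ replicate 1 for ECs against MΦs, gave the highest of these. The cause was not tested. Over all genes, the count that passed in ECs at 1wk WD ranged from 27 to 311 around 250, in MΦs at 1wk Dox from 0 to 487 around 340 and at 1wk WD from 11 to 123 around 94, and for the response of ECs against MΦs from 45 to 577 around 300.

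Correlations between same-numbered samples ran from -0.48 to 0.384 over 42 pairs and were not compared with those of differently numbered ones. They cannot settle whether the numbers pair the samples, and the main fits treat samples as independent. At 1wk WD replicate 1 had the highest acinar sum in each cell type (528895 in β samples, 53332 in ECs, 185318 in MΦs). At No Dox replicate 2 had it in ECs (1490258) and MΦs (10260654), but the lowest in β samples (27204). Whether samples shared islets was not tested. With the replicate number as a block, the count of members in MΦs at 1wk Dox became 0, with 3 genes passing in all, *Nid1* for β cells against MΦs at No Dox and *Lama4* for ECs against β cells at 1wk WD were lost, and no other member's call changed. Of 2520 single-gene values, 37 lost and 58 gained a call with the same sign. A further 2 changed sign along with their call, and 74 that passed neither way changed sign. For the 1wk Dox EC sample under median-of-ratios scaling, *Lamc1* was 1.09 and *Hspg2* 0.66. Depth is unknown, so the counting error of low scores such as those of *Col4a5* in ECs cannot be estimated. The 1wk Dox groups of ECs (n = 1) and MΦs (n = 2) are the smallest.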
